A study of Homo sapiens with 14 samples.

Results

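Heat shock genes encode the chaperones that keep proteins folded and the factor that switches these chaperones on. Described here are 10 of them: HSF1, HSPA1A, HSPA1B, HSPA8, HSPH1, HSP90AA1, DNAJB1, BAG3, HSPB1 and HSPE1. They are a list of names with no threshold on measured values, drawn up with earlier results of these data known, out of 60876 genes to which the reads were summed, and all 10 were among the 15426 genes with enough reads to be tested. RNA was taken from MDA-MB-231, an established triple-negative breast cancer cell line, in 7 groups of 2 libraries each. The groups were a control, cells given 5 µM CX-5461 with a time label of 10, 30 or 120 min, and cells given 5 µM RBI2 with the same 3 labels. CX-5461 is a known inhibitor of RNA polymerase I, the enzyme that makes ribosomal RNA, and RBI2 is a small molecule under study for the same process. The control carried no compound per the study's methods, while its results speak of DMSO, and the same 2 control libraries served all control comparisons. All groups were grown in the same serum-containing medium, in 1 cell line, and whether replicates were separate cultures is not given, so the p-values measure the spread between these libraries.

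In resting cells HSF1 is held inactive by chaperones. When unfolded proteins take the chaperones up, HSF1 forms trimers, binds heat shock elements in DNA (repeats of GAA and its complement TTC) and raises transcription of chaperone genes within minutes. HSP70 proteins (HSPA1A, HSPA1B, HSPA8) bind unfolded stretches, J-domain proteins (DNAJB1) bring them clients, exchange factors (HSPH1, BAG3) reset them, and HSP90 (HSP90AA1), small heat shock proteins (HSPB1) and the mitochondrial co-chaperonin HSPE1 act beside them. Because this response is fast, it is often read in short treatments of cultured cells.

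Heat shock elements are shown first, since they are the sequence that links these genes. RefSeq promoter windows (GRCh38.p14, 250 bases before and 50 after a start site) were present for 9 members, in 12 windows. The search used the letters GAANNTTCNNGAA and TTCNNGAANNTTC for 3 units, which are each other's reverse complement, and GAANNTTC and TTCNNGAA for 2 units, each of which reads alike on both strands and lies inside the longer forms. A 3-unit element was found in 2 of these 12 windows (HSPA8 and HSP90AA1), against 0.490% of all 35116 windows. An element of at least 2 units was found in 7 of the 12, from 6 members, against 13.5% of all windows. Those ending before the start site are printed 5′ to 3′ on the gene's strand, with the element in capitals.

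HSPA8, 3 units, minus strand, chr11:123062347-123062374: gcgagcttGAAAGTTCCAGAAcgctgcg
HSPA8, 3 units, minus strand, chr11:123062172-123062199: cgggccccTTCTGGAAGGTTCtaagata
HSP90AA1, 3 units, minus strand, chr14:102087113-102087140: gagggttcTTCCGGAAGGTTCgggaggc
HSPA1A, 2 units, plus strand, chr6:31815427-31815454: gaaaaccctgGAATATTCccgacctggc
HSPA1B, 2 units, plus strand, chr6:31827623-31827650: gaaacccctgGAATATTCccgacctggc
DNAJB1, 2 units, minus strand, chr19:14518457-14518484: gggcggggcgGAAGGTTCtggagggggc
DNAJB1, 2 units, minus strand, chr19:14518427-14518454: gcgggctctgGAAGCTTCcgccggacgg
HSPB1, 2 units, plus strand, chr7:76302481-76302508: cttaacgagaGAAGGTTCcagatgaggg

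The 250 bases before the start sites of HSPA1A and HSPA1B were 93.6% identical when aligned, and their elements carry the same 8 letters. HSPH1, BAG3 and HSPE1 had no match to these letters in their windows, which says nothing about the factor itself. A match is a description of letters and not a bound site.

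Values below are in counts-per-million (CPM), the estimated reads of a gene scaled to a common library total with TMM factors. A gene passed a comparison with an adjusted p under 0.05 in edgeR's quasi-likelihood test over all genes (Benjamini-Hochberg). It was called when the log2 fold change was also at least 1, which is a 2-fold difference. Libraries held 14112299 to 24849354 estimated reads. In control replicate 2, 20.6% of the reads were on mitochondrial genes, against 8.14% to 11.3% in the other 13 libraries, and the members' main values against the control, or their range, are given with and without it. Of the defining markers of the line, VIM had a median of 2469 in transcripts-per-million (TPM, which takes transcript length into account) and CD44 of 547 TPM, while PGR had no reads in any library and ESR1 a median of 0.0221 TPM. ERBB2 (18.4 TPM) and EPCAM (14.5 TPM), fixed as absent or low, were low and not absent. Deposited file names carry the time codes 02, 10 and 30 where the labels say 10, 30 and 120 min, so the times are given as labels.

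Per transcript length, the abundant chaperones HSP90AA1, HSPA8 and HSPE1 stood above the other members. Median TPM over the 14 libraries was 2737 for HSP90AA1, 2424 for HSPA8, 1251 for HSPE1, 605 for HSPB1 and 356 for HSPH1. It was 92.7 for HSF1, 82.5 for HSPA1B, 74.8 for DNAJB1, 69.7 for BAG3 and 32.5 for HSPA1A. The range over libraries of HSP90AA1 (2578 to 3267 TPM) overlapped that of HSPA8 (1283 to 2713 TPM), and the range of HSPA1B (31 to 140.2) overlapped those of HSF1 (80.0 to 121), DNAJB1 (39.6 to 95.7) and BAG3 (51.3 to 79.8). The ranges of HSF1 and BAG3 did not overlap. For reference, ACTB stayed between 7195 and 7805 CPM over the 14 libraries and GAPDH between 2913 and 3744 CPM. In bulk RNA a lower level can be fewer cells with the transcript or less transcript per cell, which cannot be told apart here.

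**Figure D1:**
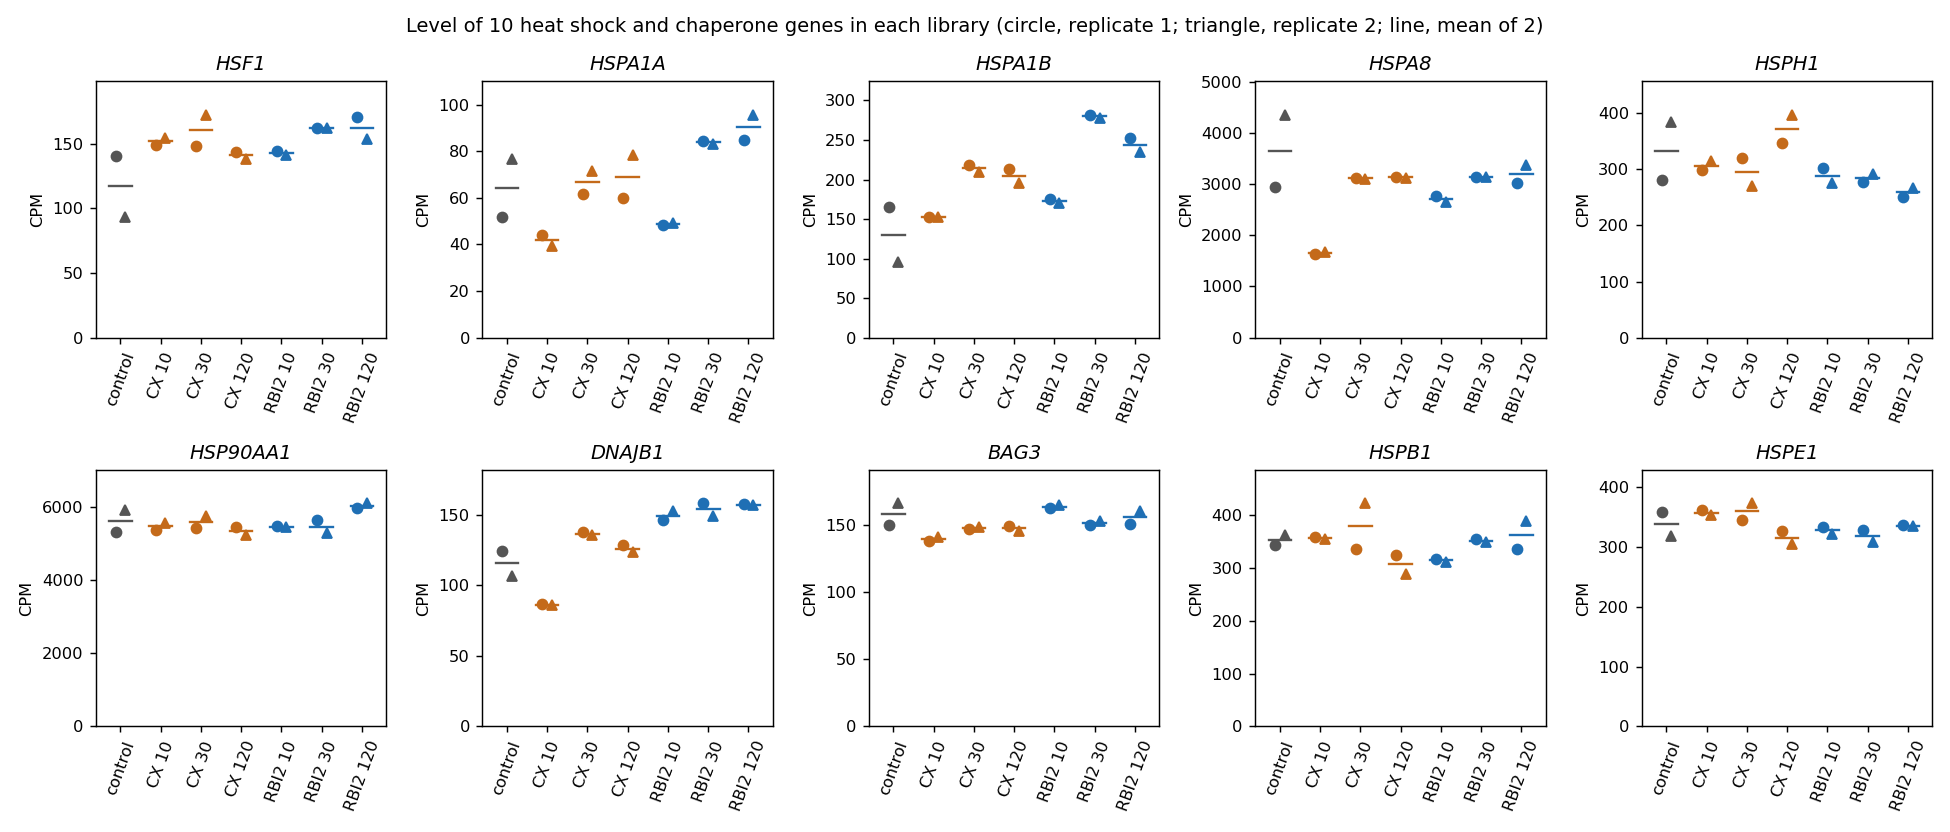
CPM of the 10 genes in each of the 14 libraries, from 0 on a linear axis, with circles for replicate 1, triangles for replicate 2 and a line at the mean of 2 (CX, CX-5461; numbers, time label in min). HSPA1A, HSPA8, DNAJB1 and BAG3 sat lowest with CX-5461 at label 10 min (HSPA8 at 1627 and 1674). The share of all genes lowest in that group was not counted. The 2 controls lay far apart for HSF1, HSPA1B and HSPA8.

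HSF1 (ENSG00000185122.11) encodes the transcription factor that binds these elements. Its level was 141 and 93.5 CPM in the controls, 149 and 154 with CX-5461 at label 10 min, 148 and 173 at label 30, and 143 and 139 at label 120. With RBI2 it was 145 and 141 at label 10, 162 and 162 at label 30, and 171 and 154 at label 120. The second control was the lowest of all 14 libraries, and the first lay among the treated ones. The log2 fold change against control lay between 0.27 and 0.47 in the 6 treated groups, with an SE of 0.152, and the smallest adjusted p was 0.0552 (RBI2, label 120 min, 95% interval 0.13 to 0.81). Without control replicate 2 the 6 values for HSF1 lay between -0.02 and 0.20. HSF1 is controlled mainly at the protein level, which these data do not measure.

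The inducible HSP70 pair rose with RBI2. HSPA1A (ENSG00000204389.10, chr6:31815543-31817946) and HSPA1B (ENSG00000204388.7, chr6:31827738-31830254) encode nearly the same protein, and 76.9% of the 31-base stretches of the longer HSPA1A transcript (2400 bases) also occur in HSPA1B. That transcript held a mean of 36.2% of the HSPA1A reads, from 0% to 100% by library, and the shorter one (1909 bases) held the rest. The authors' counting had to divide such reads between the copies, so their sum was tested too, in place of the 2 single genes and with the same scaling. The pair together had 217 and 172 CPM in the controls. With CX-5461 it had 196 and 192 at label 10 min, 281 and 282 at label 30, and 273 and 274 at label 120. With RBI2 it had 224 and 219 at label 10, 367 and 361 at label 30, and 337 and 330.1 at label 120. At label 10 the CX-5461 libraries thus lay between the 2 controls and the RBI2 libraries just above the higher control. The RBI2 libraries at labels 30 and 120 were the 4 highest of the 14.

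Against control the HSPA1A+HSPA1B pair rose 1.87-fold with RBI2 at label 30 min (log2 fold change 0.90, SE 0.0925, edgeR adjusted p = 0.0100) and 1.72-fold at label 120 (0.78, SE 0.0925, adjusted p = 0.00307). Without control replicate 2 these HSPA1A+HSPA1B values were 0.74 (adjusted p = 0.00182) and 0.61 (adjusted p = 0.00178). At label 30 the result was lost without either RBI2 library of that label and in a fit of only the 4 libraries compared (adjusted p = 0.565). At label 120 it was lost in such a fit (adjusted p = 0.322) and with an offset for transcript length (adjusted p = 0.0827). At label 10 the difference was 0.19 (95% interval -0.02 to 0.39). It was 0.36 without control replicate 1 and 0.01 without control replicate 2, so its size depended on the control used. With CX-5461 the pair had log2 fold changes of -0.00 (95% interval -0.21 to 0.20), 0.53 (0.33 to 0.74, adjusted p = 0.213) and 0.49 (0.29 to 0.69, adjusted p = 0.166) at the 3 labels, and none passed. For HSPA1A+HSPA1B these were -0.16, 0.38 and 0.31 without control replicate 2, and none passed. They were 0.17, 0.71 and 0.67 without control replicate 1, and all 3 passed (adjusted p = 0.0338 at label 10), so the value at label 10 turned its sign with the control used.

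The difference between time labels was tested itself. Within RBI2 the HSPA1A+HSPA1B pair differed between labels, by 0.72 on the log2 scale from label 10 to label 30 (F test on 2 degrees of freedom, edgeR adjusted p = 0.0125), and within CX-5461 by 0.54 (adjusted p = 0.0179). The first was lost without any 1 of the 6 RBI2 libraries, with adjusted p up to 0.146. The second passed in 6 of the 14 fits that left out 1 library, and of the CX-5461 libraries only leaving out replicate 1 at label 120 kept it. Both were also lost with the offset for transcript length.

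**Figure D2:**
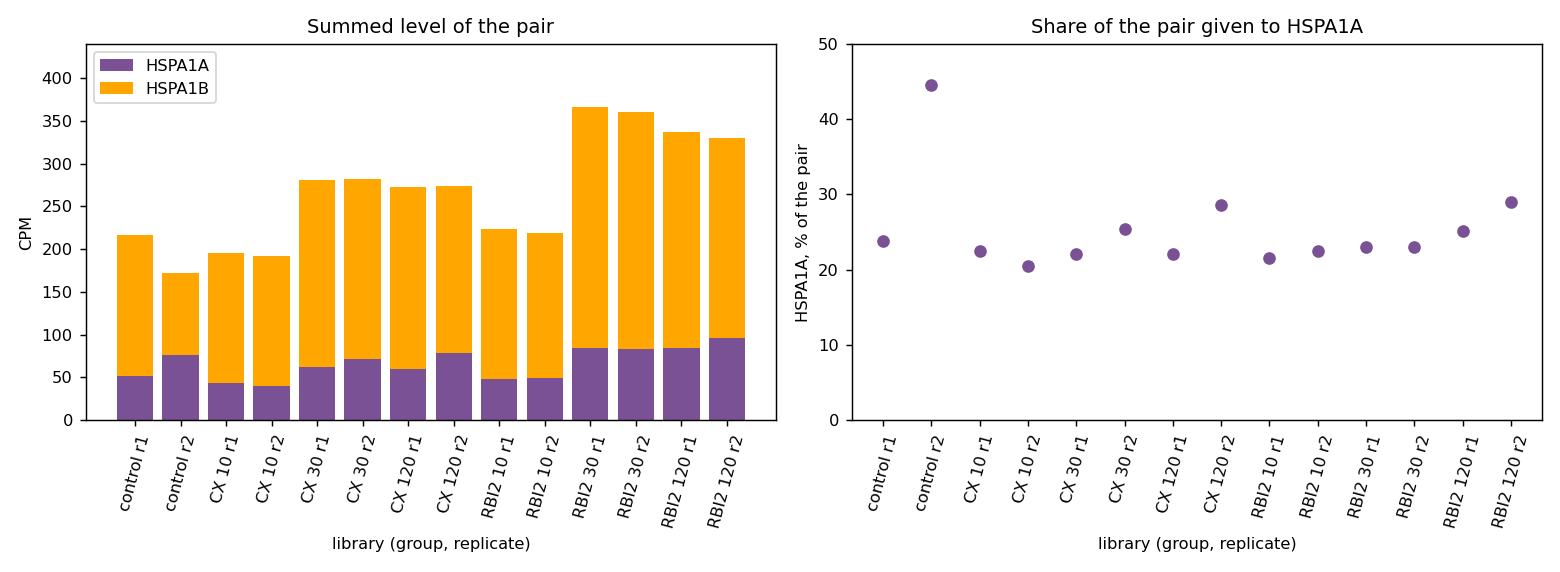
Left, stacked CPM of HSPA1A and HSPA1B in each library; right, the percent of the pair's reads given to HSPA1A (r1 and r2, replicates). The pair's total is highest with RBI2 at labels 30 and 120 min, and control replicate 2 gives HSPA1A 44.6% where the other 13 libraries give it 20.6% to 29.0%.

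Taken singly, HSPA1B had 166 and 95.2 CPM in the controls. With CX-5461 it had 152 and 153, then 219 and 209.8, then 213 and 196 at labels 10, 30 and 120 min. With RBI2 it had 176 and 170.0, then 282 and 278, then 253 and 234. HSPA1B rose with RBI2 at label 120 (log2 fold change 0.90, SE 0.185, adjusted p = 0.0152; without control replicate 2, 0.55, adjusted p = 0.00715), and at label 30 its log2 fold change was 1.10 with an adjusted p of 0.0854, so it did not pass. The other HSPA1B values against control were 0.40 with RBI2 at label 10 and 0.22, 0.71 and 0.64 with CX-5461, and none passed (0.04, -0.12, 0.38 and 0.28 without control replicate 2). The label 120 result for HSPA1B was lost without either RBI2 library of that label, with the offset for transcript length (adjusted p = 0.0744) and with only the 4 libraries compared (adjusted p = 0.322). HSPA1B at label 30 was 0.75 and passed without control replicate 2 (adjusted p = 0.0105).

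HSPA1A had 51.6 and 76.5 CPM in the controls, with the higher value in the library where HSPA1B was lowest. With CX-5461 it had 44 and 39.5, then 61.9 and 71.7, then 60.1 and 78.2. With RBI2 it had 48.2 and 49.2, then 84.4 and 83.1, then 84.7 and 95.7. No control comparison of HSPA1A passed, with log2 fold changes from -0.61 (CX-5461, label 10, adjusted p = 0.0805) to 0.50 (RBI2, label 120, adjusted p = 0.0704). DESeq2 passed both, at adjusted p of 0.0233 and 0.0265 for HSPA1A. They were -0.30 and 0.80 without control replicate 2, and the latter passed (adjusted p = 0.0149). The split between the copies moved with control replicate 2, as the plot of the pair's shares shows, so the summed pair is the more certain value.

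In the main fit the constitutive HSP70 passed against control in 1 group. HSPA8 (ENSG00000109971.14, chr11:123057489-123063230) encodes the HSP70 made in unstressed cells, which folds new proteins and takes clathrin coats apart. It had 2938 and 4359 CPM in the controls and 1627 and 1674 with CX-5461 at label 10 min. At labels 30 and 120 CX-5461 gave 3114 and 3106, then 3144 and 3124. RBI2 gave 2765 and 2657, then 3141 and 3133, then 3029 and 3366. The 2 libraries of CX-5461 at label 10 were the lowest of the 14 and overlapped no other group. HSPA1A, DNAJB1 and BAG3 were also lowest there, and the share of all genes with such a separation was not counted. Per transcript length the controls were closer for HSPA8, at 2420 and 2275 TPM, and the CX-5461 libraries at label 10 had 1283 and 1309 TPM. In control replicate 2, transcript ENST00000534319 of HSPA8 had no reads, where it held 5.38% to 32.7% in the other 13 libraries. With the offset for transcript length the fall of HSPA8 was -1.08 (adjusted p = 0.000552).

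HSPA8 fell 2.21-fold with CX-5461 at label 10 min against control (log2 fold change -1.14, SE 0.140, edgeR adjusted p = 0.00110). It was the 1 member called in any control comparison, in a comparison where 1.64% of all genes were called. Without control replicate 2 the value for HSPA8 was -0.83 (adjusted p = 4.44e-05), under the 2-fold limit. In a fit of only the 4 libraries compared, the adjusted p was 0.281. The direct comparison with RBI2 at the same label gave HSPA8 0.72 higher with RBI2 (SE 0.139, adjusted p = 0.0192). That result was lost when any 1 of the 4 libraries compared was left out, with adjusted p up to 0.131. Within CX-5461, HSPA8 differed between labels by 0.93 (label 120 minus label 10, adjusted p = 0.00778). Leaving out either CX-5461 library of label 10 lost it, with adjusted p up to 0.107.

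With RBI2, HSPA8 had log2 fold changes against control of -0.43 (95% interval -0.73 to -0.12, adjusted p = 0.282), -0.22 and -0.19 at the 3 labels, and none passed. These HSPA8 values were -0.13, 0.09 and 0.12 without control replicate 2. CX-5461 at labels 30 and 120 gave -0.23 and -0.22 (0.09 and 0.07 without that library), and neither passed. The reads of HSPA8 share their strand with 3 small nucleolar RNAs inside its introns (SNORD14C, SNORD14D, SNORD14E).

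The J-domain partner DNAJB1 was higher with RBI2 than with CX-5461. The gene (ENSG00000132002.9, chr19:14514769-14560391) encodes HSP40, which hands clients to HSP70 and also returns HSP70 to HSF1 to end a heat shock response. It had 125 and 106 CPM in the controls. CX-5461 gave 86.4 and 86.0 at label 10 min, 138 and 136 at label 30, and 128 and 124 at label 120. RBI2 gave 147 and 152, then 158 and 149, then 157 and 157. All 6 RBI2 libraries lay above all 6 CX-5461 libraries and above the control pair. Such a separation of RBI2 above CX-5461 was seen in 1.66% of all genes tested.

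DNAJB1 was 1.73-fold higher with RBI2 than with CX-5461 at label 10 min (log2 difference 0.79, SE 0.0791, edgeR adjusted p = 0.000350). This result passed without each of the 14 libraries in turn and under all 9 other fits with an adjusted p. At label 30 the difference was 0.17 (95% interval 0.00 to 0.34, adjusted p = 0.648) and at label 120 it was 0.32 (SE 0.0783, adjusted p = 0.0241). The label 120 difference of DNAJB1 was lost without any of the 4 libraries compared, with adjusted p up to 0.149, and with the offset for transcript length (adjusted p = 0.114). Against control, DNAJB1 fell with CX-5461 at label 10 (-0.42, SE 0.0792, adjusted p = 0.0126) and rose with RBI2 at label 120 (0.44, SE 0.0788, adjusted p = 0.0106). Without control replicate 2 the values for DNAJB1 were -0.53 (adjusted p = 0.00118) and 0.33 (adjusted p = 0.0185). The fall was lost without either CX-5461 library of label 10, without RBI2 label 30 replicate 1 or without RBI2 label 120 replicate 1, and the rise without either RBI2 library of label 120. The values of DNAJB1 with RBI2 at labels 10 and 30 were about as large, 0.37 (adjusted p = 0.121) and 0.41 (adjusted p = 0.0918), and did not pass. CX-5461 at labels 30 and 120 gave 0.24 and 0.12, which did not pass, and without control replicate 2 these 4 values were 0.24, 0.30, 0.15 and -0.01. The fall and the rise were also lost with the offset for transcript length (DNAJB1 adjusted p = 0.180 and 0.0563) and with only the 4 libraries compared (0.569 and 0.322).

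Within CX-5461, DNAJB1 differed between labels by 0.66 (label 30 minus label 10, edgeR adjusted p = 0.00271). This was lost without either CX-5461 library of label 10, with adjusted p up to 0.103. Within RBI2 the largest difference of DNAJB1 between labels was 0.07 (adjusted p = 0.863). Of 10570 genes with a mean of at least 5 CPM, those whose log2 CPM was most like that of DNAJB1 over the 14 libraries were RGS3 (Pearson r = 0.97), LIF (0.96) and OSGIN1 (0.95). The libraries share the controls and the fall at label 10, so these correlations are a description.

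Neither exchange factor passed against control. HSPH1 (ENSG00000120694.20, chr13:31134973-31162388) encodes HSP110, which releases ADP from HSP70 and helps to dissolve aggregates. It had 280.2 and 384 CPM in the controls. CX-5461 gave 299 and 314, then 319 and 269.8, then 347 and 397, and RBI2 gave 301 and 275, then 277 and 291, then 251 and 266. No control comparison of HSPH1 passed; the lowest adjusted p was 0.0882, at -0.36 with RBI2 at label 120 min. The 6 values of HSPH1 lay between -0.12 and 0.38 without control replicate 2, and none passed. Between compounds HSPH1 was 0.53 lower on the log2 scale with RBI2 at label 120 (SE 0.137, adjusted p = 0.0284). With an offset for transcript length the difference of HSPH1 was -0.07, and the result was also lost without CX-5461 label 120 replicate 2 or either RBI2 library of that label. In CX-5461 label 120 replicate 2, 17.2% of the HSPH1 reads were on 1 transcript (ENST00000380405) that took at most 7.91% in the other libraries. The genes most like HSPH1 over the 14 libraries were RB1, PLS1 and ADGRG6, each with a Pearson r of 0.98.

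BAG3 (ENSG00000151929.10, chr10:119651380-119677819) encodes a co-chaperone that sends HSP70 clients to autophagy and is a strong HSF1 target in many cells. It had 150.3 and 166 CPM in the controls. CX-5461 gave 138 and 141, then 147 and 148, then 149.6 and 146, and RBI2 gave 162 and 165, then 150.0 and 153, then 151 and 161. The log2 fold changes of BAG3 against control ran from -0.18 (CX-5461, label 10, 95% interval -0.33 to -0.03, adjusted p = 0.167) to 0.05, and without control replicate 2 from -0.10 to 0.11. At label 10 BAG3 was 0.23 higher with RBI2 than with CX-5461, which did not pass (95% interval 0.08 to 0.38, adjusted p = 0.122).

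The HSP90, small heat shock and mitochondrial members did not pass in any comparison. HSP90AA1 (ENSG00000080824.19, chr14:102080742-102139699) encodes the inducible HSP90, which matures kinases and steroid receptors. It had 5316 and 5928 CPM in the controls, 5237 to 5757 in the 6 CX-5461 libraries and 5289 to 6116 in the 6 RBI2 libraries. All 6 of its 95% intervals against control lay within -0.22 and 0.25, and without control replicate 2 the 6 log2 fold changes of HSP90AA1 lay between -0.01 and 0.18. Its highest libraries were those of RBI2 at label 120 min, 5971 and 6116, where HSP90AA1 was 0.17 higher than with CX-5461 (95% interval 0.02 to 0.32, adjusted p = 0.106). In control replicate 2, 17.6% of its reads were on a transcript annotated for nonsense-mediated decay (ENST00000554401), against at most 1.03% elsewhere.

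HSPB1 (ENSG00000106211.10, chr7:76302673-76304295) encodes HSP27, which holds unfolded proteins without using ATP. It had 344 and 363 CPM in the controls, 289 to 423 with CX-5461 and 312 to 389 with RBI2, and these ranges over all labels overlapped. RBI2 at label 10 (317 and 312) and CX-5461 at label 120 (326 and 289) lay below both controls. The log2 fold changes of HSPB1 against control lay between -0.20 and 0.10, with edgeR adjusted p of at least 0.469. Without control replicate 2 they lay between -0.18 and 0.15. HSPE1 (ENSG00000115541.11, chr2:197500140-197503449) encodes HSP10, the lid of the mitochondrial chaperonin, and shares its strand with a read-through gene, HSPE1-MOB4. It had 357 and 318 CPM in the controls, 304 to 373 with CX-5461 and 308 to 336 with RBI2. Its 6 log2 fold changes against control lay between -0.10 and 0.09, and every 95% interval lay within -0.27 and 0.26. The values of HSPE1 lay between -0.20 and 0.02 without control replicate 2. Under a GC and length correction, HSPE1 with RBI2 at label 120 turned from -0.01 to 0.33 and passed (adjusted p = 0.0347).

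**Figure D3:**
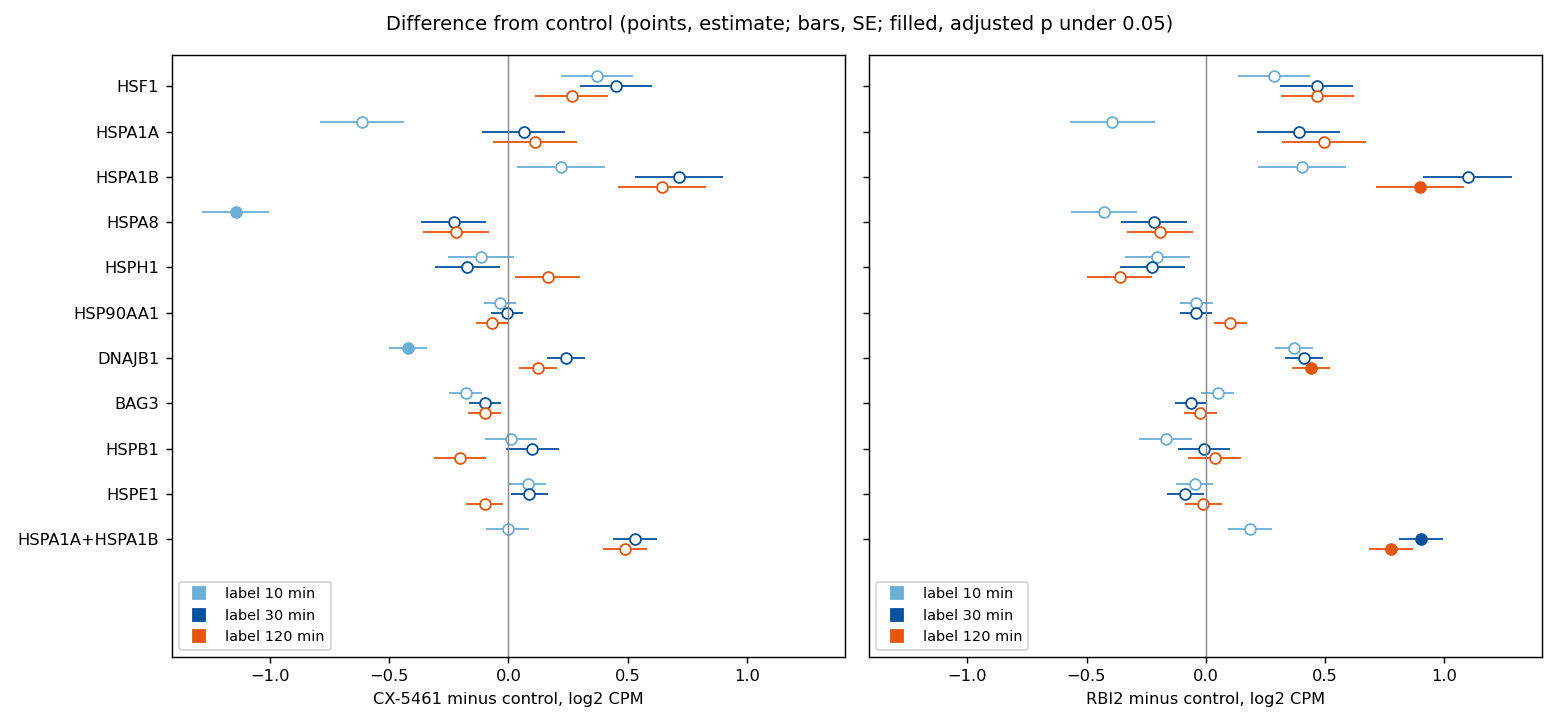
Log2 fold change against control of each gene and of the summed HSPA1A and HSPA1B pair, with CX-5461 on the left and RBI2 on the right; bars are 1 SE, colours are time labels and filled points passed. HSPA8, HSPA1A and DNAJB1 lie farthest left of 0 with CX-5461 at label 10 min (HSPA8 at -1.14), and HSPA1A did not pass there. The pair lies right of 0 with RBI2 at labels 30 and 120.

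Counted over the 10 members, RBI2 gave 0, 0 and 2 that passed against control at labels 10, 30 and 120 min, where 0.201%, 0.0713% and 18.0% of all genes did. At label 120 the share of members in this fit was thus near that of all genes, and the 2 were HSPA1B and DNAJB1. A correction for GC content and length passed 4 members there, beside 7.64% of all genes, so that nearness depended on the fit. For CX-5461 the counts in the main fit were 2, 0 and 0, where 4.77%, 0% and 0.0778% of all genes passed, and the 2 were HSPA8 and DNAJB1. With the fold limit 1 member was called, HSPA8 with CX-5461 at label 10. The shares of all genes called were 0.0778%, 0.0389% and 1.82% for RBI2, and for CX-5461 they were 1.64%, 0% and 0.0454%.

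These counts moved with the controls. Without control replicate 1 they were 6, 5 and 5 for RBI2, where 29.1%, 38.3% and 43.1% of all genes passed, and 7, 5 and 4 for CX-5461, where 37.7%, 39.3% and 21.5% did. In that fit HSF1 (0.59 to 0.79), HSPA1B (0.68 to 1.55), HSPA8 (-1.40 to -0.46) and DNAJB1 (-0.31 to 0.55) passed in all 6 groups. HSPH1 passed in 5 (-0.58 to -0.33), HSPA1A in 2 (-0.66 and -0.88, both at label 10) and BAG3 in 1 (-0.25, CX-5461 at label 10). With control replicate 1 alone they were 0, 1 and 3 for RBI2, where 0.228%, 0.0247% and 8.27% of all genes passed, and 2, 0 and 0 for CX-5461, where 3.01%, 0% and 0.105% did.

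Where no member passed, those at an unadjusted p under 0.05 numbered 3 and 4 for RBI2 at labels 10 and 30 (12.9% and 25.8% of all genes), and 3 and 1 for CX-5461 at labels 30 and 120 (22.9% and 12.4%). DESeq2 at an adjusted p under 0.05 passed 1, 2 and 5 members for RBI2, where it passed 1.39%, 9.61% and 26.9% of the genes it gave an adjusted p. For CX-5461 it passed 3, 0 and 0, where it passed 6.68%, 0.182% and 1.13%. Under a correction for GC content and length, 1, 1 and 4 members passed for RBI2, beside 0.933%, 0.162% and 7.64% of all genes. For CX-5461 they were 2, 0 and 0, beside 7.43%, 0.0130% and 0.162%. With no filter on low counts, 3, 4 and 5 members passed for RBI2 and 4, 2 and 1 for CX-5461. The share of all genes in that fit is not given here, so these last counts cannot be set beside it.

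The 2 compounds were compared directly to ask whether the levels of these genes differed between them. Such a difference does not show a response to one and not the other. At label 10 min 2 members passed (HSPA8 and DNAJB1, both higher with RBI2), where 3.06% of all genes did. At label 30 none passed, where 0.0130% did, 1 had an unadjusted p under 0.05 (7.79% of all genes) and DESeq2 passed 0 (0.330%). At label 120 DNAJB1 was higher and HSPH1 lower, so 2 passed where 16.1% of all genes did. No member was called with the fold limit at any label or over all labels, where 1.04%, 0.0130%, 1.67% and 0.927% of all genes were. Over all 3 labels together, in the 12 treated libraries with the label as a term and without the controls, 3 members passed, where 8.76% of all genes did, and 6.80% were higher with RBI2. They were HSPA1A (0.32, SE 0.0715, edgeR adjusted p = 0.0180), HSPA1B (0.28, SE 0.0454, adjusted p = 0.00410) and DNAJB1 (0.44, SE 0.0827, adjusted p = 0.00888), all higher with RBI2. HSPA1A was lost without CX-5461 label 10 replicate 2 or RBI2 label 10 replicate 2, with adjusted p up to 0.0540, while HSPA1B and DNAJB1 passed without each of the 12 libraries in turn.

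The summed HSPA1A+HSPA1B pair was 1.23-fold higher with RBI2 over all labels (log2 difference 0.29, SE 0.0386, edgeR adjusted p = 0.00155). It passed without each of the 12 libraries in turn. At the single labels the differences of the pair were 0.19, 0.37 and 0.29, with adjusted p of 0.388, 0.379 and 0.0561. Without control replicate 2, which enters that fit only through the estimate of spread, scaling and the filter, the pair passed at labels 30 (adjusted p = 0.0227) and 120 (adjusted p = 0.00159). Without control replicate 1 the differences of the pair were 0.19, 0.37 and 0.28, and it passed at each label. For the pair both RBI2 libraries lay above both CX-5461 libraries at each label. The same held for DNAJB1 and for BAG3, which passed at no label. The share of all genes with this pattern was not counted. For HSF1 the difference over all labels was 0.05 (95% interval -0.08 to 0.19) and for HSP90AA1 it was 0.06 (-0.04 to 0.16). Members that differed between time labels numbered 0 within RBI2, where 1.67% of all genes did, and 2 within CX-5461 (HSPA8 and DNAJB1), where 2.87% did. Without control replicate 1 or 2 these counts were 3 and 3 within RBI2 (11.9% and 12.8% of all genes) and 5 and 4 within CX-5461 (14.5% and 13.2%), and with only the libraries compared 3 within RBI2 (20.8%). Within RBI2 2 members had an unadjusted p under 0.05 (18.8% of all genes), and DESeq2 passed 2 (10.0%). With a largest difference of at least 1 as well, no member was called between labels, where 0.363% of all genes were within RBI2 and 1.09% within CX-5461.

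**Figure D4:**
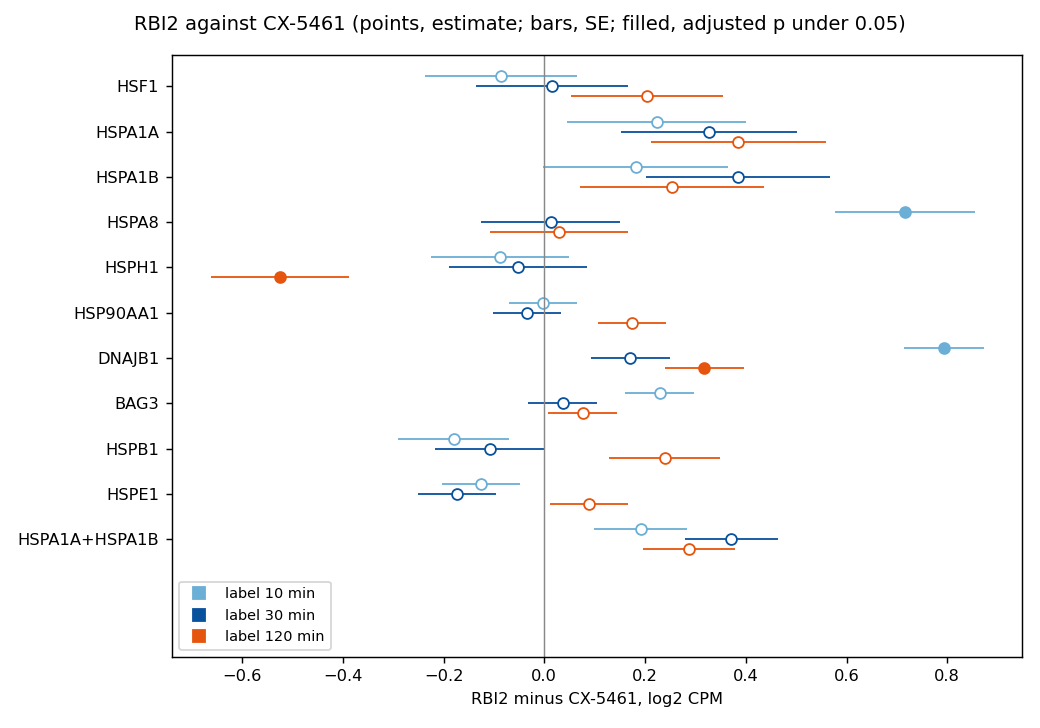
Log2 difference RBI2 minus CX-5461 at each time label, with bars of 1 SE and filled points for those that passed. DNAJB1 (0.79) and HSPA8 (0.72) at label 10 min lie farthest to the right, HSPH1 at label 120 lies at -0.53, and the HSPA1A and HSPA1B points lie right of 0 at all 3 labels.

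Other chaperone genes were taken from 9 lists of 93 symbols, of which 82 were tested. HSPA6, the strictly stress-induced HSP70, stayed between 1.92 and 4.28 CPM in all 14 libraries. HSPA5, the HSP70 of the endoplasmic reticulum, lay between 694 and 920.0 CPM. The inducible small heat shock gene CRYAB was at or below 0.0815 CPM in all libraries and was not tested.

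With CX-5461 at label 10 min, 4 of the 82 passed, 2 higher and 2 lower, a share near the 4.77% of all genes. Without control replicate 1 the count was 40, where 37.7% of all genes passed. GRPEL2, a mitochondrial exchange factor for HSP70, had 36.2 and 45.9 CPM in the controls, 18.9 and 17.1 with CX-5461 at label 10, and 31.8 to 43.3 in the other 10 libraries. GRPEL2 fell by 1.19 on the log2 scale (SE 0.12, edgeR adjusted p = 0.000348). DNAJB9, a J-domain protein of the endoplasmic reticulum, had 9.51 and 9.75 CPM in the controls and 21.3 and 20.5 with CX-5461 at label 10, and rose by 1.12 (SE 0.13, adjusted p = 0.000784). These 2 of the 82 were called, where 1.64% of all genes were. Neither was called when only the 4 libraries compared were fitted (edgeR adjusted p = 0.223 and 0.178). With control replicate 1 as the only control they were -1.01 and 1.14. They also differed from RBI2 at that label (GRPEL2 1.19 and DNAJB9 -1.16). The others were DNAJB4 (-0.66) and CRELD2 (0.53). The median of the 82 was 0.04, beside -0.04 for all genes tested.

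With RBI2 at label 120 min, 25 of the 82 passed, 6 higher and 19 lower, and none was called. Of all 15426 genes 18.0% passed, 1373 higher and 1399 lower. Their median log2 fold change was -0.10, beside 0.01 for all genes tested. The cytosolic chaperonin and prefoldin list, which folds actin and tubulin, had 7 of 14 lower and none higher, with a median of -0.22. CCT2 had 325 and 341 CPM in the controls and 272 and 272 with RBI2 at label 120, and fell by 0.29 (edgeR adjusted p = 0.0131). Of the other lists, J-domain proteins had 2 of 12 higher and 3 lower, HSP90 and its co-chaperones 1 of 13 higher and 1 lower, HSP70 and HSP110 relatives 2 of 8 lower, exchange factors 1 of 6 higher and 1 lower, and heat shock factors 1 of 3 lower (HSF2, -0.51). Of 9 mitochondrial chaperones, HSPD1 (-0.35), which HSPE1 caps, and HSPA9 (-0.38) fell, and CLPB, a disaggregase, rose from 68.9 and 69.1 CPM to 109 and 101 (0.61, adjusted p = 0.00576). Of 16 endoplasmic reticulum chaperones, HYOU1 rose (0.44) and PDIA3 and DNAJC10 fell. The count of 25 was 0 and 1 without 1 or the other RBI2 library of that label, 1 with an offset for transcript length (1.40% of all genes), 2 with a correction for GC content and length (7.64%), and 0 with only the 4 libraries compared (0%). It was 53 without control replicate 1, where 43.1% of all genes passed, and 13 without control replicate 2, where 8.27% did.

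Against CX-5461 at label 120 min, 24 of the 82 passed, 2 higher (CLPB and HYOU1) and 22 lower, where 16.1% of all genes did, 814 higher and 1676 lower, with a median of -0.13 beside 0.01 for all genes. The smallest adjusted p were those of HSPA13, an HSP70 of microsomes (-0.93, adjusted p = 0.00692), and HSPD1 (-0.44, adjusted p = 0.00759). This count was 0 without either RBI2 library of that label, 1 without CX-5461 label 120 replicate 2, 12 with the offset for transcript length (6.55% of all genes) and 11 with the GC and length correction (12.2%). Leaving out control replicate 1 or 2 gave 40 and 37, where 27.8% and 27.9% of all genes passed. At RBI2 labels 10 and 30, DESeq2 passed 0 and 9 of the 82, beside 1.39% and 9.61% of genes with an adjusted p. At CX-5461 labels 30 and 120 it passed 0 and 1, beside 0.182% and 1.13%. In the main fit none of the 82 passed with RBI2 at labels 10 and 30, beside 0.201% and 0.0713% of all genes. None passed with CX-5461 at labels 30 and 120, beside 0% and 0.0778%. Without control replicate 1 these counts were 30 and 44 for RBI2 and 40 and 23 for CX-5461, where 29.1%, 38.3%, 39.3% and 21.5% of all genes passed.

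**Figure D5:**
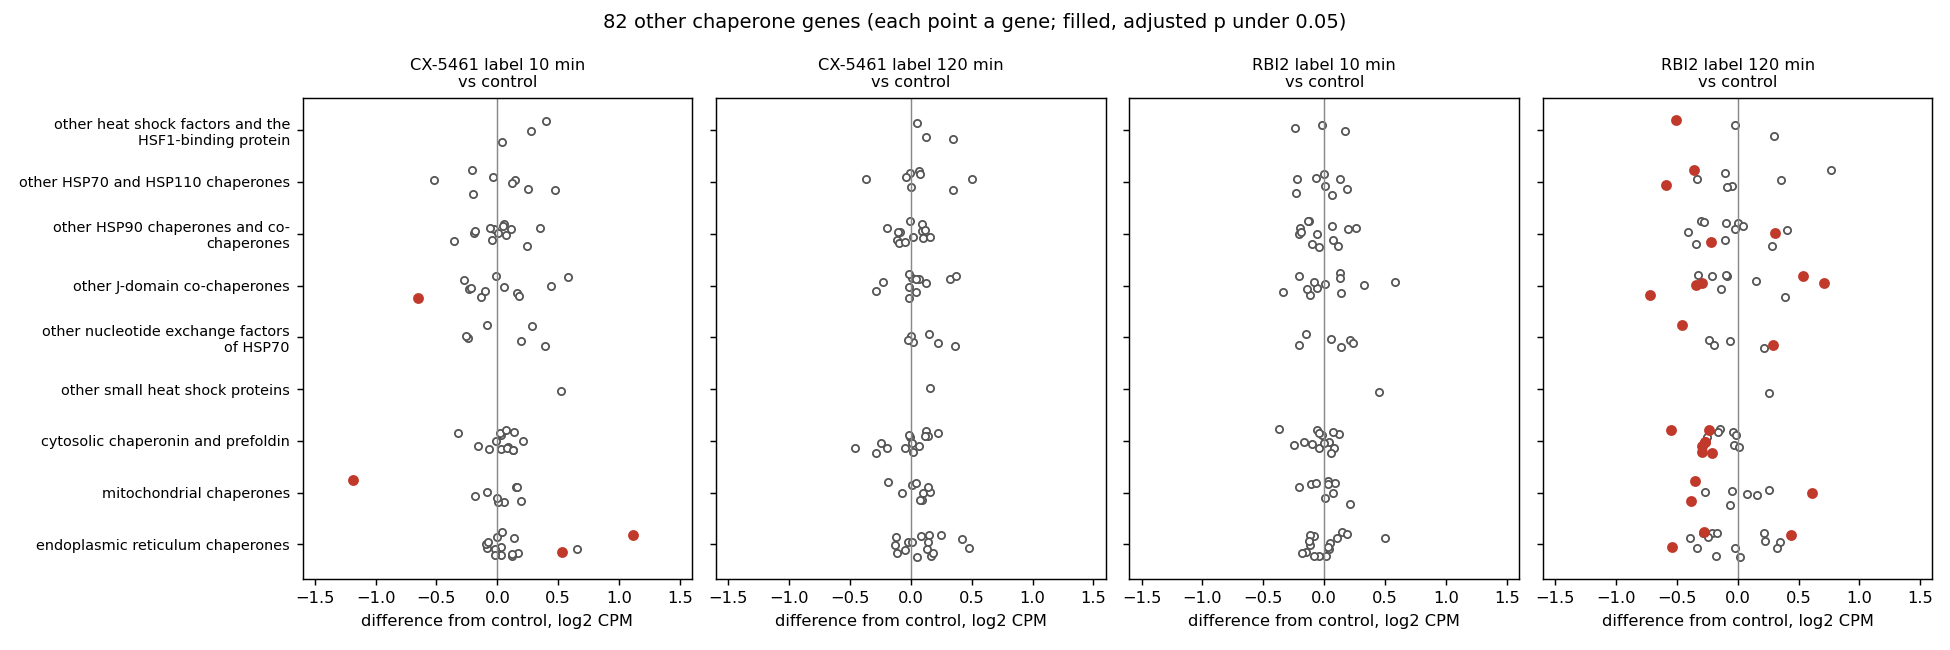
Log2 fold change against control of the 82 other chaperone genes by list, at labels 10 and 120 min of both compounds; each point is a gene, placed at random in height within its list, and filled points passed. The 2 filled points farthest from 0 with CX-5461 at label 10 are GRPEL2 (-1.19) and DNAJB9 (1.12), and with RBI2 at label 120 the filled chaperonin and prefoldin points all lie left of 0.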

How the data were processed

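RNA of 14 libraries (7 groups of 2) was sequenced from poly(A) captured, stranded libraries. Per the methods, the authors took out reads of the ribosomal DNA repeat and assigned the rest to GRCh38 transcripts with Salmon (1.3.0 in the submitters' processing notes, which also name STAR 2.7.6a, SAMtools 1.11 and bedtools 2.29.2). The deposited files hold, for each transcript, the estimated count that Salmon gave, neither normalized nor rounded, the TPM value the authors obtained with it, and the transcript lengths. TPM was summed per gene and served for levels per transcript length, not for tests.

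Of 228754 transcripts, 225662 matched GENCODE release 44 by identifier without version, and the rest (1.03% to 1.13% of reads) were left out. Counts were summed per gene, rounded, filtered with filterByExpr (minimum count 10) and scaled with TMM. One model over 14 libraries and 7 groups was fitted in edgeR (4.0.16) with the quasi-likelihood F test and Benjamini-Hochberg adjustment over 15426 genes. The common coefficient of variation was 12.3%. A second model, over the 12 treated libraries, held compound and time label as terms. HSPA1A and HSPA1B were also summed, with the scaling of the table that holds both.

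In simulated data for CX-5461 at label 10 min against control (15178 genes), 33 of 50 genes with a 2-fold change and 12 of 49 with a 1.5-fold change passed. Apart from the set changes, each gene had the same simulated mean in all libraries. Shifts of single libraries, such as control replicate 2, were not simulated, so these rates need not hold for the measured data. No 2 measured libraries were alike: at least 80487 transcripts differed in each of 91 pairs. Members and lists were chosen with earlier results of these data known. Every member is named, and from the other lists the genes called with the largest changes and otherwise those with the smallest adjusted p; further ones were named after their values were seen. Heat shock elements were searched in RefSeq promoter windows. Alternatives were DESeq2 (1.42.0), other scalings, no filter, offsets for length or GC content, a replicate block, fewer libraries, and leaving out each library.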

Additional observations from a re-analysis of the deposited data

Results flagged for a closer look

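Some members differed between compounds or between time labels when that difference was itself tested, and are listed here with the log2 difference and edgeR's adjusted p over all genes. With groups of 2 libraries no single library could be tested as standing apart within its group. Between RBI2 and CX-5461 at label 10 min the differences were 0.72 for HSPA8 (adjusted p = 0.0192) and 0.79 for DNAJB1 (adjusted p = 0.000350). At label 120 min they were 0.32 for DNAJB1 (adjusted p = 0.0241) and -0.53 for HSPH1 (adjusted p = 0.0284). Over all labels they were 0.32 for HSPA1A (adjusted p = 0.0180), 0.28 for HSPA1B (adjusted p = 0.00410), 0.44 for DNAJB1 (adjusted p = 0.00888) and 0.29 for the HSPA1A+HSPA1B pair (adjusted p = 0.00155).

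Between time labels within CX-5461 the largest differences were 0.93 for HSPA8 (label 120 minus label 10, adjusted p = 0.00778), 0.66 for DNAJB1 (label 30 minus label 10, adjusted p = 0.00271) and 0.54 for the HSPA1A+HSPA1B pair (label 30 minus label 10, adjusted p = 0.0179). Within RBI2 the pair differed by 0.72 (label 30 minus label 10, adjusted p = 0.0125).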

How the results depend on the processing

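Of 3135 values of members and of the HSPA1A+HSPA1B pair under an alternative, 2910 kept their side of the threshold (187 of them, not passing in either fit, changed sign), 57 no longer passed, 165 newly passed and 3 reversed. The reversals were HSPE1 with RBI2 at label 120 min, at 0.33 under a GC and length correction and 0.33 with that correction and the replicate block (adjusted p = 0.0347 and 0.0349), and the HSPA1A+HSPA1B pair with CX-5461 at label 10, at 0.17 without control replicate 1 (adjusted p = 0.0338) and -0.16 without control replicate 2. The cause was not tested.

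Members called with RBI2 at label 30 numbered 0, and 1 with DESeq2, with DESeq2 at an unadjusted p and with no filter. At that label DESeq2 passed 9.61% of the genes it gave an adjusted p, where the main fit passed 0.0713% of all genes. The share of all genes called in these alternatives is not given here. With CX-5461 at label 10 the 1 became 0 when only the libraries compared were fitted. Without the fold limit the counts were 2 for RBI2 at label 120, CX-5461 at label 10, both direct comparisons at labels 10 and 120 and the labels within CX-5461, and 3 over all labels. Over all alternatives with an adjusted p, members without the fold limit ranged from 0 to 5 for RBI2 at label 120, from 0 to 7 for CX-5461 at label 10, and from 0 to 5 for the direct comparison at label 120. These highest counts came without control replicate 1, where a larger share of all genes passed than in the main fit, as printed above. For RBI2 at label 120 the 5 also came with DESeq2 (26.9% of all genes) and with no filter. The direct comparison at label 120 was as high without control replicate 2. Both comparisons at label 120 gave 0 with the length offset and without either RBI2 library of that label, the direct one also without CX-5461 label 120 replicate 2, and both control comparisons gave 0 with only the libraries compared. Other chaperone genes called with CX-5461 at label 10 numbered 2, where 1.64% of all genes were called. They numbered 1 with the GC and length correction, 1 with the block as well, and 0 with only the libraries compared. Between labels within CX-5461 the 2 became 1 and 1 under the same corrections. Against CX-5461 at label 120 the 0 became 1 with the length offset. Without the fold limit the counts were 25 for RBI2 at label 120, 4 for CX-5461 at label 10, 24 for RBI2 against CX-5461 at label 120, 11 over all labels (8.76% of all genes) and 1 for the labels within RBI2 (1.67%). The last 2 ranged, on leaving out a library, from 2 to 15 and from 0 to 17 (17 without either control, 11.9% and 12.8% of all genes). DESeq2 gave 21 and 14 (12.2% and 10.0%), and only the libraries compared gave 24 within RBI2 (20.8%).

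Leaving out 1 library in turn, members called ranged from 0 to 1 for RBI2 at labels 30 and 120 and for CX-5461 at labels 10, 30 and 120. The extra calls came without control replicate 1, where a larger share of all genes passed against control than in the main fit, as printed above. The loss at CX-5461 label 10 came without control replicate 2. Other chaperone genes called ranged from 0 to 1 for RBI2 at labels 10 and 30, 0 to 3 at label 120, 2 to 5 for CX-5461 at label 10, 0 to 3 at label 30, 0 to 1 at label 120, 0 to 1 for RBI2 against CX-5461 at label 120, and 1 to 2 between labels within CX-5461. A left-out library leaves its group with 1 library, which is assumed to vary like the others. No share of all genes called stands beside these counts, so they are not read as a result about the members or the lists.

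Same-numbered replicates did not deviate together: over 21 pairs of groups the correlation of deviations lay between -0.18 and 0.18, and 3 were over 0.1. With the number as a replicate block, members that passed were 2 for RBI2 at label 120 and 2 for CX-5461 at label 10, the counts without it. TMM with another reference library, chosen after seeing the data, passed 3 members with RBI2 at label 120 in place of 2, and HSPA1A+HSPA1B against CX-5461 at label 120 had an adjusted p of 0.047. Each member had at least 710 reads in every library, and each group had 2 libraries.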
